A study of Xenopus tropicalis with 8 samples.

Results

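The 200 named genes with the brightest probes in untreated Xenopus tropicalis embryos are described here, each by its level on the 4 control arrays and by the spread of that level between arrays. They were taken from 2327 named genes whose probe was well above background on all 4 control arrays, of which they are 8.59%. The genes were chosen by their mean level over the 4 arrays, and a gene with several probes that passed was ranked by the brightest. Because the means chose the genes, the order is a description and no test was made of it.

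The study exposed embryos of this frog to Disperse Yellow 7, a textile dye, and compared them with controls on Agilent single-colour arrays labelled with Cy3. The 4 control samples have the treatment label none and were total RNA of embryos with the development stage label 12 to 46. Whether these are the stages of exposure or of sampling is not stated. The 4 samples exposed to 887 ppm of the dye were not used here. The labels give no strain, no vehicle, and no number of embryos in a sample. They do not say that the 4 control samples came from separate clutches or cultures, so the spread between arrays may be technical. Each sample is bulk RNA, in which fewer cells of a type and less RNA per cell cannot be told apart.

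Stages 12 to 46 run from gastrulation to a feeding tadpole, so the label covers the time in which the eye, the heart, the trunk muscle, the gut and the liver form. The lens of the eye is filled with crystallins, long-lived proteins packed densely enough to bend light. The alpha crystallins are related to small heat shock proteins, whereas the beta and gamma crystallins form another protein family. The gamma crystallins of frogs and fishes are encoded by many related genes. Embryonic muscle is rich in the myosins and giant filament proteins of the sarcomere. The liver of the tadpole secretes the plasma proteins, and the gut takes up fat with the help of apolipoprotein B.

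Levels are log2 intensities relative to the 75th percentile of the array's probes, so that a level of 1 is 2 times that percentile's brightness. The percentile was an intensity of 243 on control 1, 162 on control 2, 224 on control 3 and 327 on control 4. The 200 genes had mean levels from 8.73 down to 2.62 with a median of 3.60, against a median of -0.36 over all named genes that passed. Their unscaled intensities ran from 927 to 125440, and 0 spots were saturated on any array. Brightness depends on the probe as well as on the transcript, so the ranking orders probes and does not order transcripts by abundance. The genes are therefore called the 200 brightest named genes, and not the most abundant.

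Control 2 stood apart from the other controls before any gene was considered. Its levels correlated with those of the others at 0.966 to 0.969 over the 16794 probes that passed, whereas the other 3 arrays correlated with each other at 0.989 to 0.995. On control 2, 51.6% of probes were well above background, and on the others 70.0% to 75.9%. Leaving out control 2 kept 197 of the 200 genes among its own brightest 200, and moved the median SD of the 200 from 0.154 to 0.150, against a move from 0.164 to 0.129 over all probes that passed. Controls 1 and 2 lay on slide 1, and controls 3 and 4 on slide 2.

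Most of the brightest signals were outside the ranking, since few probes could be named. Of the 32899 probes, 17.9% matched a RefSeq accession and 4872 had a gene symbol. At or above the level of gene 200 there were 1997 probes, and 10.3% of these had a symbol. The brightest 100 probes held 2 of the named genes, and 52 probes were brighter than the first of them. The ribosomal proteins show how thin the naming is, since 8 of their genes had a named probe on the array, 4 passed the background filter, and 0 were among the 200.

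**Figure D1:**
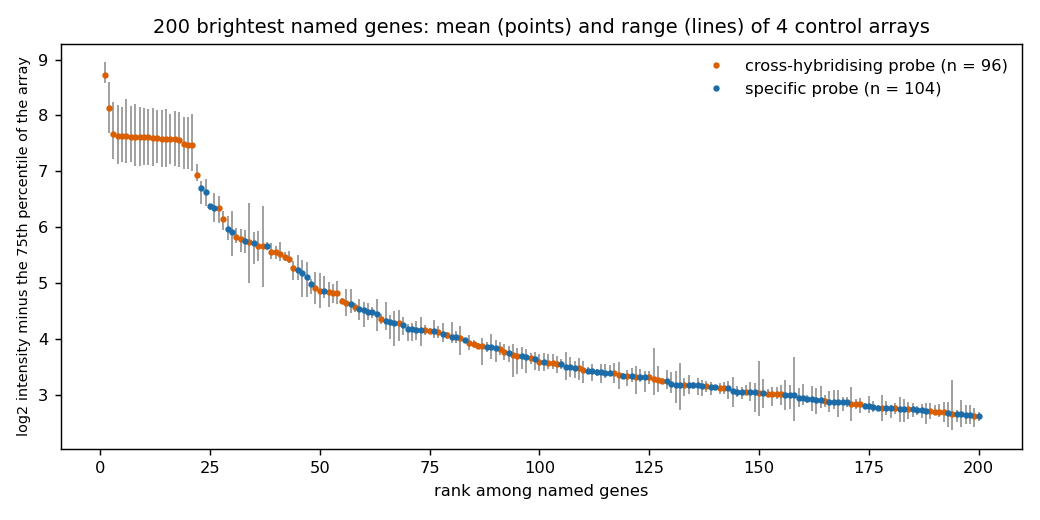
Mean level (points, log2 intensity relative to the array's 75th percentile) and the range over the 4 control arrays (grey lines) of the 200 brightest named genes, in rank order and coloured by probe design. Ranks 3 to 21 form a flat step near 7.6 with long range lines, and all 22 of the first 22 genes had cross-hybridising probes.

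Probe design divided the 200. The probe names on the array mark each probe as specific or as cross-hybridising, the latter meaning that it can also bind other transcripts. Cross-hybridising probes stood for 96 of the 200 (48.0%), against 28.3% of the 2327 named genes and 50.8% of all probes that passed. They stood for all 22 of the first 22 genes, 31 of the first 40, and 65 of the other 160. A level on such a probe may sum several transcripts and is not assigned to the named gene alone. The named accession was a curated RefSeq record for 52 of the 200 and a predicted one for 148.

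The gene at the head of the ranking was rax, which encodes a homeobox transcription factor of the eye field and the retina. Its levels were 8.81, 8.95, 8.58 and 8.59 on controls 1 to 4, with a mean of 8.73 ± 0.18 (SD, n = 4). All 4 arrays lay within 0.37 of each other, but the probe is cross-hybridising. Rank 2 was dgkq, which encodes a diacylglycerol kinase, at 7.68, 8.60, 7.72 and 8.53. Controls 2 and 4 were high for dgkq and controls 1 and 3 were low, with no overlap.

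Lens crystallins followed as a block. Ranks 3 to 21 held 19 genes, and 17 of them were gamma crystallins. On control 1 the 17 lay between 7.07 and 7.36, on control 2 between 7.97 and 8.30, on control 3 between 7.01 and 7.22, and on control 4 between 7.78 and 7.93. The ranges on controls 2 and 4 therefore did not overlap those on controls 1 and 3. Each of the 17 differed between arrays by 0.90 to 1.15, more than the 17 differed among themselves on any array. Their SD over the arrays was 0.446 to 0.531. The SD of the mean of the 17 was 0.491. It was 0.437 in the deposited log2 matrix, 0.580 with median scaling, 0.570 with no scaling and 0.869 with normexp background correction. With extreme local backgrounds repaired before the normexp correction it was 0.474. With quantile normalization, which gives all arrays the same distribution of brightness, it was 0.163.

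The brightest of the block was crygdl.12, at 7.27, 8.24, 7.22 and 7.93 on controls 1 to 4. Near the middle, crygdl.29 was at 7.27, 8.14, 7.10 and 7.88. At the end, crygdl.6 was at 7.08, 8.02, 7.01 and 7.78. The same array order, with control 2 highest, then control 4, then controls 1 and 3, ran through the block. All 17 probes are cross-hybridising, and the genes belong to the same family, so the 17 levels cannot be taken as separate measurements. Their sequences were not compared.

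The block also held cpa1, the pancreatic carboxypeptidase A, and swap70, an actin-binding signalling protein. Levels of cpa1 were 7.31, 8.11, 7.12 and 7.92, and those of swap70 were 7.23, 8.11, 7.14 and 7.87. Both lay inside the range of the 17 crystallins on all 4 arrays, and both are read by cross-hybridising probes. Another pancreatic enzyme, amy2a, was at -0.67, -1.09, -0.58 and -0.83 and did not show this array order. Which transcripts the cpa1 and swap70 probes read was not tested.

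**Figure D2:**
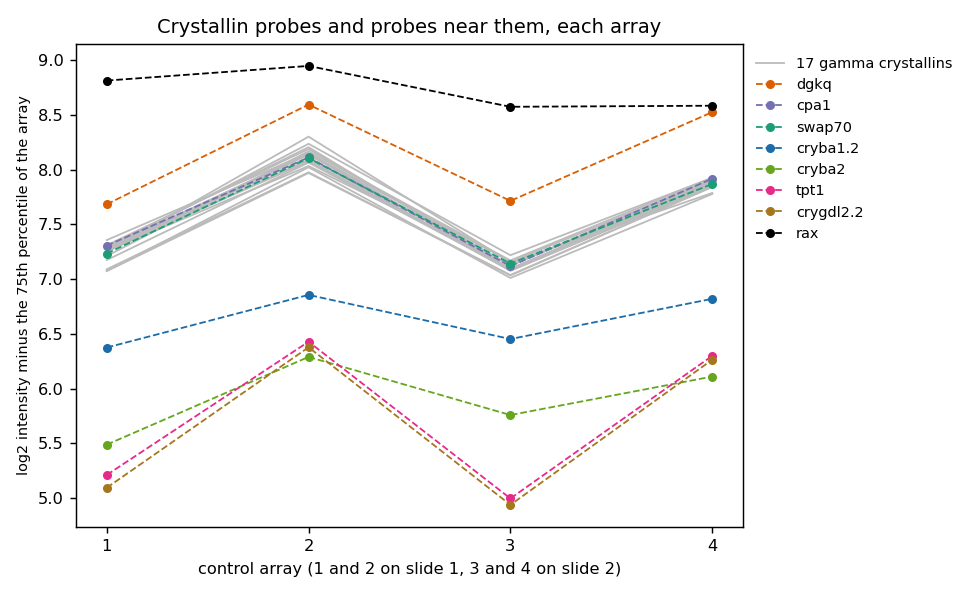
Level of each gene on the 4 control arrays (log2 intensity relative to the array's 75th percentile) for 17 gamma crystallins (grey) and 8 other genes among the 200 (coloured). Controls 2 and 4 are above controls 1 and 3 for every gene drawn except rax, and cpa1 and swap70 run inside the grey lines.

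Annotation places these genes together. In RefSeq, 39 genes of the crygbl and crygdl series lie on chromosome 1, and the 18 gamma crystallins among the 200 are all on it. Among the 200, crygdl.12, crygdl.13 and crygdl.14 are direct neighbours, as are crygdl.23, crygdl.24 and crygdl.25, and as are crygdl.31 and crygdl.32. The only other neighbours among the 200 were nefm and nefl, which encode the medium and light neurofilament proteins. Levels of nefm were 3.97, 4.27, 4.26 and 4.26, and those of nefl were 3.94, 4.31, 3.95 and 3.99. Control 1 alone was low for nefm, and control 2 alone was high for nefl, so these neighbours did not share an array order.

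Some pairs of genes were close on every array and not just in their mean. Of 1298 pairs among the 200 with means within 0.1 of each other, 132 were within 0.1 on all 4 arrays. Pairs inside the block of 19 made up 79 of these, out of 133 such pairs (59.4%), and the other genes gave 53 of 1165 (4.55%). Such a pair outside the block was borcs7, whose product helps to position lysosomes, and odr4, named for a worm gene of odorant receptor trafficking. Levels of borcs7 were 5.53, 5.58, 5.72 and 5.44, and those of odr4 were 5.56, 5.59, 5.67 and 5.43. Both probes are cross-hybridising, and what each reads was not tested.

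Lens genes on specific probes that passed the background filter had controls 2 and 4 above controls 1 and 3, as in the block. Among the 200 there were 2 such genes, cryba1.2 and cryba2, which encode beta crystallins. Levels of cryba1.2 were 6.38, 6.86, 6.45 and 6.82, and those of cryba2 were 5.49, 6.29, 5.76 and 6.11. Controls 2 and 4 were again the higher arrays for both. Below the 200, the gamma crystallin gene cryga.7 was at -1.50, -0.62, -1.34 and -0.43. Its relative cryga.1 was at -2.02, -1.60, -2.68 and -1.39. The gene bfsp1, whose product filensin forms the beaded filaments of lens fibre cells, was at -1.78, -1.06, -1.59 and -0.77. In all 5 of these genes controls 2 and 4 did not overlap controls 1 and 3. Unlike in the block, control 4 was above control 2 for cryga.7, cryga.1 and bfsp1. Among lens genes that did not pass, cryga.4 and bfsp2 were well above background on 3 of the 4 arrays and lacked the order. Levels of cryga.4 were -3.42, -3.59, -3.41 and -3.37, and those of bfsp2 were -3.14, -2.84, -2.63 and -2.27. The genes cryga.6 and crygdl.15, above background on 2 and 1 of the arrays, had the order.

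Over crystallin genes and bfsp1, 25 passed the background filter, and in 23 of them controls 2 and 4 were the highest arrays. All 20 that are among the 200 had this order, and so did the 5 on specific probes. The exceptions were crygdl.39 and crygdl.5, on cross-hybridising probes at ranks 467 and 492. The related gene crybg1, which does not encode a lens crystallin and was left out of these counts, was at 0.47, 0.22, 0.05 and 0.51 on a specific probe, without this order. Among all probes that passed, 7.39% had controls 2 and 4 highest. The filter also bears on these counts, since control 2 had the fewest probes well above background. A dim gene could therefore pass more readily where control 2 was high. The genes were put together after their values were seen, so these counts are a description of the 4 arrays and support nothing further. The order held for the 17 genes of the block under the other ways of scaling the arrays, except that quantile normalization kept it for 15. Normexp background correction and unscaled intensities kept it for 2 and 3 of the 5 genes on specific probes. With extreme local backgrounds repaired, normexp correction kept it for all 5.

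The photoreceptor genes described here did not share the order. Of these 4, all on specific probes and not all that passed, 0 had controls 2 and 4 highest. The disc rim gene prph2 was at 1.52, 1.15, 1.63 and 1.36, and its partner rom1 at 1.09, 0.59, 1.14 and 1.19. Control 2 was the lowest array for these and for rbp3 and pde6a, as it was for 44.2% of all probes that passed. No photoreceptor marker was among the 200.

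**Figure D3:**
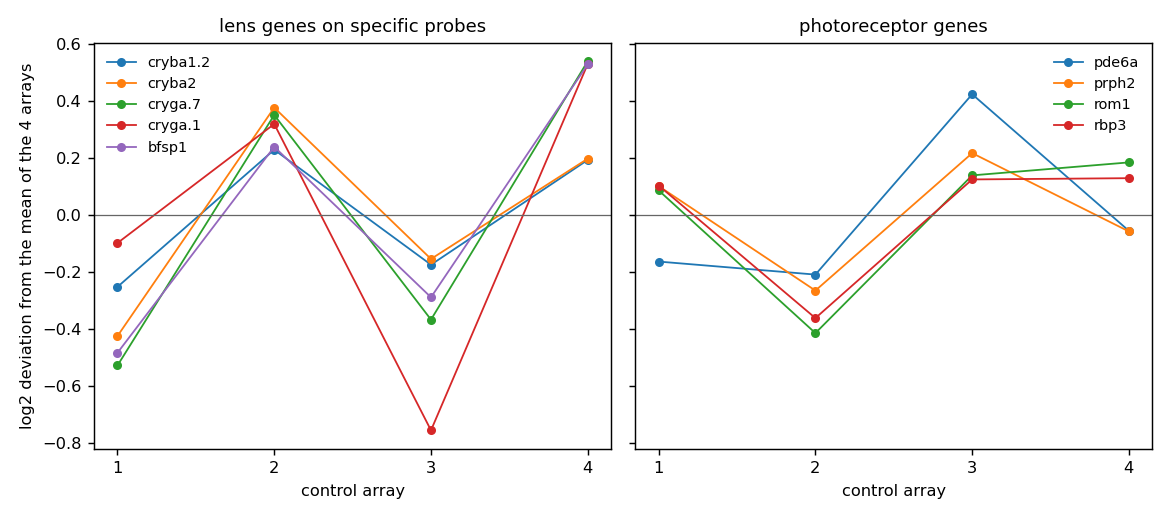
Deviation of each control array from the mean of the 4 arrays (log2) for 5 lens genes on specific probes (left) and 4 photoreceptor genes (right). All 5 lens genes are above 0 on controls 2 and 4 and below 0 on controls 1 and 3, and 0 of the photoreceptor genes follow that order.

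The order with controls 2 and 4 highest was not confined to lens genes. It was found in 39 of the 200 (19.5%), of which 20 were lens genes, and in 7.39% of all probes that passed. The gene tpt1, which encodes the translationally controlled tumour protein, was at 5.21, 6.43, 5.0 and 6.30. Another tpt1 probe gave 5.17, 6.38, 4.95 and 6.29, a mean 0.04 lower than the first. Controls 2 and 4 exceeded controls 1 and 3 by more than 1 on both, and both are cross-hybridising. The gamma crystallin crygdl2.2 stood near it at 5.09, 6.38, 4.94 and 6.26, with the largest SD of the 200 (0.758), ahead of tpt1 (0.735). On a specific probe, tnfaip6, which encodes a hyaluronan-binding protein, was at 2.92, 3.58, 2.74 and 3.50.

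Of the 200 genes, 28 (14.0%) differed between arrays by 0.8 or more, against 7.93% of all probes that passed. In 24 of these 28, controls 2 and 4 were the highest arrays, and 6 of the 24 were not gamma crystallins. Those 6 were dgkq, cpa1, swap70, cryba2, tpt1 and tnfaip6. Among all probes with so wide a range, 17.4% had that order. Control 2, the array that stands apart, and control 4, which does not, were both high in it. Arrays and the samples on them cannot be told apart here, and the cause of the order was not tested. With control 2 left out, 9 of the 200 differed by 0.8 or more, and control 4 was the highest array in 8 of them. With control 4 left out 28 did, with quantile normalization of all 4 arrays 6, and with no scaling 175.

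The other 4 wide genes had other orders. The macrophage lysosome gene cd68 was at 2.59, 3.20, 3.68 and 2.55 on a specific probe, with control 3 highest. Levels of ubxn8, a gene of the endoplasmic reticulum, were 2.78, 3.61, 3.17 and 2.62. The mitochondrial ribosome gene mrps33 was at 3.01, 3.84, 3.24 and 3.09, and nufip1, whose product helps to assemble small nucleolar RNPs, was at 2.37, 3.27, 2.52 and 2.51. Control 2 was highest for these last 3 genes, and leaving it out narrows each of them. All 3 have cross-hybridising probes.

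Muscle genes were among the brightest on specific probes. The highest of all on a specific probe was mybph, which encodes a myosin-binding protein of the sarcomere, at 6.78, 6.82, 6.42 and 6.82, with control 3 low. Cardiac myosin heavy chain, myh6, was at 6.42, 6.31, 6.42 and 6.40, a mean of 6.39 ± 0.052 (SD, n = 4). Its 4 arrays lay within 0.11 of each other. Nebulin, neb, the ruler of the thin filament, was at 4.81, 5.06, 5.0 and 5.08. These were 3 of 12 sarcomere genes that passed (25.0%). The share over all named genes was 8.59%, and this count and the list counts below are to be read beside it. The muscle intermediate filament gene des.2 was at 3.55, 3.43, 3.25 and 3.52, and myzap, an adherens junction gene of heart muscle, at 6.19, 6.29, 5.96 and 6.18 on a cross-hybridising probe.

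Further muscle-related genes among the 200 included ocm1, which encodes oncomodulin, a calcium buffer of the parvalbumin family, at 5.37, 5.19, 4.75 and 5.12. The muscle acetylcholine receptor subunit gene chrna1, on a cross-hybridising probe, was at 3.75, 3.55, 3.66 and 3.69. Its 4 arrays lay within 0.20 of each other. Of the marker genes of skeletal muscle, 6 passed and neb was the only one among the 200, so the others, tnnt1, ryr1, pvalb, ampd1 and srl, had dimmer probes.

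Liver and gut genes came next. Apolipoprotein B, apob, the protein core of lipoprotein particles, was at 6.62, 6.45, 6.09 and 6.26 on a specific probe. It lay highest on control 1 and lowest on control 3, with an SD of 0.228. The plasma protein genes itih2 (an inter-alpha-trypsin inhibitor chain), serpina1 (alpha-1-antitrypsin) and plg (plasminogen) were at means of 4.62, 2.94 and 2.68. All 4 have specific probes, and they are 4 of 20 plasma protein genes that passed (20.0%). Control 1 was the highest array for each of them, as it was for 41.0% of the 200 and 29.6% of all probes. With quantile normalization it was the highest for 61 of the 200, so no order of liver genes is drawn. Albumin, alb, was below the 200, at 0.43, 0.70, 0.86 and 0.32 on a cross-hybridising probe.

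Of 7 genes of gut absorption and bile that passed, 3 were among the 200. Besides apob these were fabp6, the ileal bile acid-binding protein, at 4.51, 4.36, 3.87 and 4.46, and ush1c, the brush border scaffold harmonin, at 5.40, 5.74, 5.54 and 5.40. Control 3 was low for fabp6 and control 2 high for ush1c. The probes of ush1c and of anks4b, below, are cross-hybridising. The carotenoid-cleaving enzyme gene bco1 had a mean of 3.01, the tetraspanin-like gene tm4sf5 one of 4.53, and anks4b, another brush border scaffold, one of 3.02. Control 3 was low for tm4sf5 as well, and in it, as in fabp6, the 3 other arrays lay within 0.2 of each other. Over the 200, control 3 was the lowest array for 58.5%.

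Epidermal and neural filament genes followed. The keratin gene krt62 was at 5.75, 5.59, 5.64 and 5.65, with an SD of 0.065. Periplakin, ppl, which links keratin to desmosomes, was at 4.57, 4.42, 4.39 and 4.56. With nefm and nefl they are 4 of the 15 intermediate filament and epidermal genes that passed, and all 4 have specific probes. The sodium pump subunit gene atp1b2, of neurons and glia, was at 5.57, 5.37, 5.39 and 5.44 on a cross-hybridising probe. The microtubule-associated protein gene map1b, of growing axons, was at 3.34, 3.46, 3.46 and 3.42. Its arrays differed by 0.12 at most.

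Actin-sequestering thymosins were represented by tmsb15a, at 6.20, 5.96, 5.78 and 5.91 on a specific probe, and by tmsb4x, at 3.85, 3.91, 3.99 and 3.88 on a cross-hybridising one. Control 3 was the lowest array for tmsb15a and the highest for tmsb4x. The chaperone gene hspa8, the constitutive Hsp70, was at 5.81, 5.35, 5.78 and 5.91, with control 2 low. The xenobiotic and retinoid P450 gene cyp1b1, a cross-hybridising probe, was at 7.13, 6.82, 6.85 and 6.95. It stood at rank 22, directly below the crystallin block, and did not have the order of the block.

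RNA-binding genes among the 200 covered splicing and stress. Of 34 splicing and RNA-binding genes that passed, 5 were included. Among them hnrnpm alone has a specific probe, and the others have cross-hybridising ones. The splicing helicase gene ddx46 was at 6.45, 6.57, 6.08 and 6.28. Levels of syncrip, which encodes an hnRNP of mRNA transport, were 5.40, 5.31, 5.05 and 5.33. The gene fus, for another hnRNP-like protein, was at 4.69, 4.68, 4.63 and 4.74. Of these, fus varied least, with an SD of 0.046. The hnRNP gene hnrnpm had a mean of 3.86 and rbm48, of the minor spliceosome, one of 2.76. Outside that list, the cold-inducible gene cirbp was at 5.73, 5.76, 5.86 and 5.98 on a cross-hybridising probe. The gene nop56, of the box C/D snoRNP, was at 5.24, 5.51, 5.06 and 5.15 on a specific one.

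Mitochondrial genes were read mostly by specific probes. Of 15 genes of respiration and ATP synthesis that passed, 4 were among the 200, all subunits of complex I. The first, ndufb1, was at 4.45, 4.71, 4.15 and 4.45. The next, ndufc2, was at 4.42, 4.44, 4.01 and 4.33. The last of those on specific probes, ndufa5, was at 3.02, 3.16, 2.72 and 2.81. Control 3 was lowest and control 2 highest for all 3. The gene ndufs6, on a cross-hybridising probe with a mean of 3.18, also had control 3 lowest. Among the 200, control 3 was lowest for 58.5% and control 2 highest for 35.5%, so no order of these genes is drawn. A further 9 mitochondrial genes, put together after their values were seen, had a median SD of 0.165. They included micos13 and immt, which shape the cristae, with means of 4.25 and 2.81.

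Proteasome and ubiquitin genes had narrow spreads. Of 58 that passed, 5 were among the 200, a share of 8.62% against 8.59% over all named genes. The core particle gene psmb7 was at 4.29, 4.22, 3.97 and 4.26, and the ATPase gene psmc1 at 4.32, 4.12, 3.99 and 4.21. Control 3 was lowest for both, as it was for 58.5% of the 200. The deubiquitinase gene usp14, the conjugating enzyme gene ube2d4 and the lid gene psmd3 had means of 4.13, 3.40 and 2.77. Only the usp14 probe is cross-hybridising. The median SD of the 5 was 0.113.

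Extracellular matrix and adhesion genes gave 6 of the 50 that passed. The kidney cadherin gene cdh16 was at 5.20, 4.85, 4.64 and 4.99 on a cross-hybridising probe. The basement membrane collagen gene col4a5 was at 5.13, 4.76, 4.74 and 4.81, and its family member col4a2 at 2.73, 2.52, 2.71 and 2.66. Control 1 was the highest array for these 3 genes, as it was for 41.0% of the 200 and 29.6% of all probes. The fibril-associated osteoglycin gene ogn and the laminin gene lamb1 had means of 3.64 and 3.21. For col6a1, a microfibril collagen gene, the levels were 3.24, 2.86, 3.21 and 3.43, with control 2 low. The highest array was control 1 for lamb1 too, but control 2 for ogn and control 4 for col6a1. No order of matrix genes is therefore drawn.

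Signalling genes were the largest list after the crystallins, with 11 of 91 that passed (12.1%, against 8.59% over all named genes). Their median SD was 0.094, the lowest of the 16 lists that had 3 or more genes among the 200. The guanine nucleotide exchange factor gene arhgef11 was at 3.93, 4.15, 4.05 and 4.03, and pik3r1, the regulatory subunit of PI3 kinase, at 3.90, 3.96, 3.83 and 3.77. In both the arrays differed by 0.22 or less. In prkacb, the catalytic subunit of protein kinase A, they differed by 0.48, from 2.43 on control 3 to 2.92 on control 1. Outside that list, the growth-control GTPase gene rheb was at 4.21, 4.14, 4.17 and 4.11 on a cross-hybridising probe.

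Developmental regulators were few and had cross-hybridising probes. Of 115 developmental transcription factor genes that passed, 5 were among the 200 (4.35%, against 8.59% over all named genes). The gene rax was not on the list. The gut mesoderm factor gene foxf1 was at 5.04, 4.92, 4.62 and 4.71. The neural progenitor factor gene sox2 was at 3.23, 3.05, 3.26 and 3.15, and neurog3, of endocrine precursors, at 3.08, 2.80, 3.14 and 3.07. The other members of the list were znf16 and pax1, with means of 4.08 and 2.70. All 5 probes are cross-hybridising. Of 59 genes of growth factor signalling that passed, 2 were included. The BMP antagonist gene nog was at 5.56, 5.46, 5.40 and 5.48 on a cross-hybridising probe, and the endocytic receptor gene lrp1 at 4.32, 4.66, 4.20 and 4.16 on a specific one.

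Carriers and metal handling genes gave both narrow and wide spreads. The zinc transporter genes slc39a1 and slc30a3, for uptake and for loading of vesicles, had means of 4.16 and 3.60 and SDs of 0.073 and 0.129. The fatty acid transporter gene slc27a2 was at 3.29, 3.24, 3.22 and 3.30. Its SD of 0.041 was among the 10 smallest. The peroxisomal transporter gene abcd3 was at 3.68, 3.43, 3.32 and 3.56, with controls 1 and 4 high. The amino acid transporter gene slc43a1 was at 3.82, 3.77, 3.33 and 3.92, with control 3 low. The selenium carrier gene selenop1 was at 3.67, 3.26, 3.34 and 3.65, with controls 1 and 4 high. Of the genes in this paragraph slc30a3 and abcd3 have specific probes, and the rest have cross-hybridising ones.

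Metabolic genes entered with 7 of 53 lipid genes and 4 of 23 genes of amino acid, nucleotide and one-carbon metabolism that passed. Medium-chain acyl-CoA dehydrogenase, acadm, was at 2.82, 2.52, 2.49 and 2.73, just inside the edge of the ranking. The branched-chain keto acid dehydrogenase gene bckdhb was at 3.09, 2.62, 2.77 and 3.01. In both genes controls 1 and 4 were the highest arrays. Over all probes that passed, these arrays were the most alike, with a correlation of 0.995. How many probes had that order was not counted, so no order of metabolic genes is drawn. Outside these lists, the hexosamine pathway gene gfpt1 was at 3.50, 3.41, 3.39 and 3.46, a range of 0.11.

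Lists that gave few or no genes were measured too. Globin and red cell genes gave 0 of 6 that passed, and glycolysis 0 of 3. Both lists are too short to differ from the 8.59% over all named genes. Histone and chromatin genes gave 1 of 32, the remodeller gene chd3, at 3.60, 3.98, 3.94 and 3.84. Cell cycle and repair genes gave 2 of 57, the replication factor gene cdc45 and the cyclin gene ccnb2, with means of 3.83 and 2.69. Both have cross-hybridising probes. Vesicle traffic genes gave 2 of 60. A low count here follows the named probes on the array, and says nothing of genes without one. Of 28 gene lists, 16 had 3 or more genes among the 200, and 99 of the 200 were in none.

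**Figure D4:**
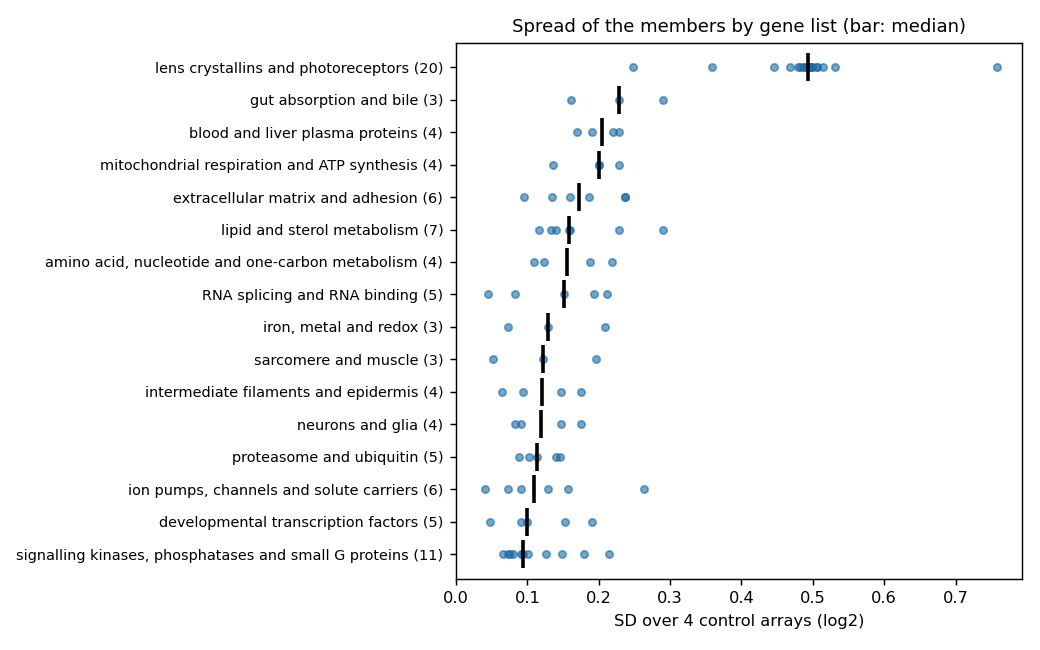
SD over the 4 control arrays (log2) of each gene among the 200, for the 16 gene lists with 3 or more of them (points), with the median of each list (bar). The lens list has a median SD of 0.493, and the medians of the other 15 lists lie between 0.094 and 0.228.

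Checked against 256 marker genes of 19 cell types, the embryos had a named probe for 69, of which 49 passed and 12 were among the 200. Those 12 were neb, myh6, ppl, cpa1, apob, serpina1, itih2, plg, fabp6, nefl, nefm and sox2. Apart from cpa1, they are on the marker lists of muscle, heart, epidermis, liver, gut, neurons and neural progenitors, and sox2 has a cross-hybridising probe. Other markers of heart (tnnt2), epidermis (krt78.6, grhl1), liver (alb, fgg) and neural progenitors (nes) passed below the 200, as did those of muscle named above. Those of heart (nppb, tbx5), epidermis (tgm1), liver (fga) and gut (rbp2) did not pass. The 12 genes are therefore not a measure of these cell types. For the pancreas, cpa1 has the cross-hybridising probe that ran inside the crystallin range, amy2a had a mean of -0.79, and ctrb1 and ptf1a were well above background on 3 and 0 of the 4 arrays. Markers of red cells, kidney, photoreceptors, endothelium and blood leukocytes passed without reaching the 200. The lens marker cryab, an alpha crystallin, was well above background on 0 of the 4 arrays.

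Across the 200 the SD between arrays ran from 0.029 to 0.758. Its median of 0.154 lay near that of all named genes (0.166) and of all probes that passed (0.164). Over the 1997 probes at or above the level of gene 200, the median SD was 0.143. Without the block of 19, the median of the other 181 genes was 0.145. Genes on cross-hybridising and on specific probes had median SDs of 0.157 and 0.150. In 151 genes (75.5%) the 4 arrays lay within 0.5 of each other, against 72.4% of all probes. On each array 80 or 81 of the 200 had duplicate spots, whose median gap of 0.046 to 0.071 was smaller than the spread between arrays.

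**Figure D5:**
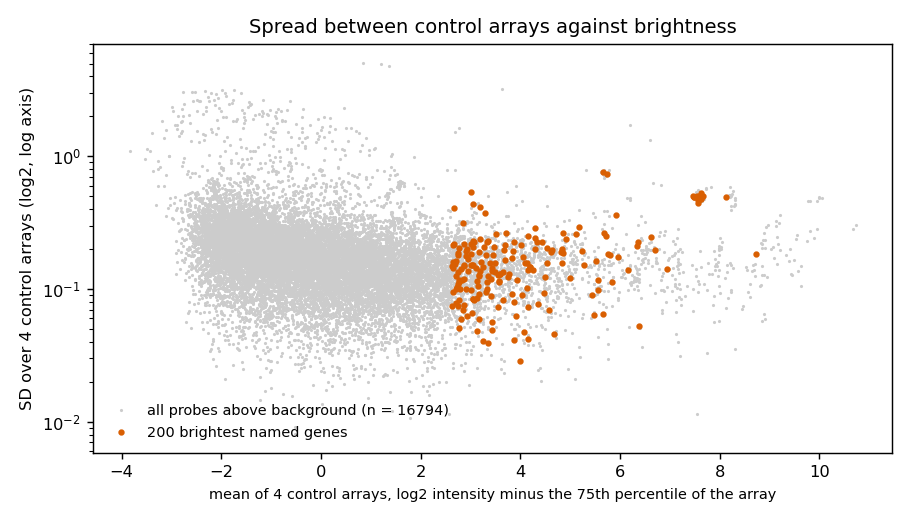
SD over the 4 control arrays (vertical, log axis) against mean level (horizontal, log2 intensity relative to the array's 75th percentile) for 16794 probes above background (grey) and the 200 brightest named genes (orange). The crystallin block forms a tight cluster near a mean of 7.6 and an SD of 0.49, with tpt1 and crygdl2.2 at 0.735 and 0.758. The median SD of the 1997 probes at or above the level of gene 200 was 0.143.

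The most stable gene was ubxn4, of protein quality control at the endoplasmic reticulum, at 3.96, 4.02, 3.97 and 4.01. Its SD was 0.029. The coactivator gene zmiz2 was at 3.36, 3.29, 3.39 and 3.35, also on a specific probe. Among the 10 with the smallest SD were also rheb, slc27a2, fus, znf16, gfpt1, nfkbil1 and ado. Of the latter, gfpt1 and ado have specific probes and the rest have cross-hybridising ones. In these named genes no array differed from another by more than 0.12.

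Between the slides, 2 of 16794 probes (0.0119%) differed at an adjusted p under 0.05 by limma with Benjamini-Hochberg adjustment, and 0 of the 200 genes did. Both were probes with no match to RefSeq. The smallest adjusted p among the 200 was 0.985 by limma. At an unadjusted p under 0.05 there were 477 probes (2.84%) and 1 of the 200, the endocytic adaptor gene sh3kbp1. Slide 2 minus slide 1 ran from -0.45 to 0.27 over the 200, with a median standard error of 0.168. With 2 arrays on each slide, changes of 1 on the log2 scale were recovered for 3% of simulated probes and changes of 2 for 71%, so a slide difference of the size seen here was not detectable.

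The sign of that slide difference depended on the scaling. With the 75th percentile, 74.0% of the 200 were lower on slide 2, against 41.4% of all probes. With the median it was 97.0% against 78.1%, with no scaling 0.5% against 2.35%, and with quantile normalization 45.5% against 41.2%. Likewise, control 3 was the lowest array for 117 of the 200 (58.5%, against 25.2% of all probes) with the 75th percentile and for 58 with quantile normalization. No direction between slides, and no low reading of control 3 across the 200, is therefore drawn.

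Of the 200 genes, 5 had another probe that passed. For tpt1, crygdl.11, crygdl.35, lrrc45 and zbed4 the means of the probes differed by 0.04, 0.06, 0.02, 0.06 and 0.08. Each of these additional probes is cross-hybridising, so the likeness cannot be told apart from a shared set of transcripts.

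At the edge of the ranking the levels were nearly continuous. Just inside lay prkacb, c4orf48, acadm, sult4a1 and tnrc6b, from 2.66 to 2.62. Just outside lay erh, ltbp3, tnks, selenok and siva1, from 2.61 to 2.58. The SD of these 10 genes was 0.074 to 0.215, larger than the gap across the edge, so membership there was within the spread between arrays.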

How the data were processed

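Total RNA from 4 control samples was measured on single-colour Agilent arrays with 45220 spots, of which 1417 were controls. The deposited scanner files hold a linear intensity for each spot, corrected for background by Feature Extraction 10.7.3.1 (slide 1) and 10.7.1.1 (slide 2), per the file headers. The deposited series matrix holds log2 values of the same spots and correlated at 0.987 or higher with the log2 intensity of each array. Its column medians were 5.38, 5.53, 5.41 and 5.39, and how it was centred is not stated by any source used.

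Spots flagged as outliers were left out, the others averaged per probe, and log2 intensity was taken relative to the array's 75th percentile. Probes were retained when well above background on all 4 arrays (51.0% of 32899). Accessions without version were matched to RefSeq genes of assembly UCB_Xtro_10.0, used for names and neighbours, with 5891 probes matched and 4639 genes named. Probe design was read from the probe names in the files. Slide 2 minus slide 1 was tested with limma 3.58.1 in R 4.3.3 over all kept probes, and the test was checked on simulated data. Normexp correction with an offset of 50, an alternative, was planned on the mean spot signal and run on the median spot signal, the column in the files. A repaired version set 6, 156, 96 and 3 extreme local backgrounds (over 5 MADs) to the array's median.

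Text names the 40 brightest genes, the 10 with the largest and the 10 with the smallest SD, 5 on each side of the edge, genes with another probe, and up to 8 of each list with at least 3 members. Some genes that this covers are not reported here. Further names were chosen after their values were seen, as were 8 added lists and 5 removals of false name matches. The members and all lists were chosen with earlier results of these data known. The number of arrays limits the precision. Python 3.11.15, pandas 2.3.3, numpy 2.4.6 and matplotlib 3.10.9 were used.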

Additional observations from a re-analysis of the deposited data

Results flagged for a closer look

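In 10 of the 200 genes (5.0%, against 6.85% of all probes that passed), 1 control array lay so far from the other 3 that its gap to the nearest, divided by the range, exceeded Dixon's 95% critical value for 4 samples. Chance flags about 1 in 20 groups. Control 2 was the array for 4 of the genes, control 3 for 3, control 1 for 2 and control 4 for 1.

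The largest ratio was that of nefm (0.949), in which control 1 was low at 3.97 against 4.26 to 4.27 on the others. In nefl (0.849) control 2 was high at 4.31, so these neurofilament genes had different outlying arrays. Control 3 was low for mybph (0.894), tm4sf5 (0.870) and ttc27 (0.859), at 6.42, 4.23 and 3.54. Control 2 was high for ube2d4 (0.873, at 3.54) and nufip1 (0.837, at 3.27) and low for snx1 (0.909, at 2.59), a gene of endosomal sorting. Control 1 was low for scaf1 (0.882, at 3.05), and control 4 was high for palm (0.908, at 3.18). The probes of ttc27, nufip1 and palm are cross-hybridising.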

How the results depend on the processing

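All 200 genes were also the brightest 200 with quantile normalization, in the deposited matrix and with flagged spots kept. So they were with no or a weaker filter on dim probes, and with the mean of a gene's probes. Median scaling and no scaling shift the mean of every probe by the same amount, so there all 200 remained by construction. With normexp, repaired or not, 191 remained, and 197 to 199 with 1 array left out. Limited to specific probes, 104 remained, by construction. The median SD of the 200 was 0.468 with no scaling and 0.534 with normexp, in which control 3 had 96 extreme local backgrounds. After their repair it was 0.200, and with 1 array left out 0.124 to 0.178.

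The 28 genes with a range of 0.8 or more became 175 with no scaling, 6 with quantile normalization and 193 with normexp, and 24 to 36 with the median, repaired normexp, the deposited matrix or flagged spots kept. With 1 array left out they were 9 (without control 2) to 28. These alternatives for the range were added after seeing the data.

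The count of probes that differed between slides by limma was 2. It was 9 with the median, 23 with no scaling and 1 with quantile normalization. With normexp, repaired normexp, the deposited matrix, no filter on dim probes and at least 3 arrays above background it was 0, with 11, 796, 400, 1293 and 1276 probes at an unadjusted p under 0.05. With 1 array left out, the lone array of a slide being assumed to vary like the others, it was 0 to 446, the latter without control 1. The cause was not tested. None of these settings called any of the 200 genes. No paired analysis was possible because only control samples were used, with no other group to pair them with.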
